A study of Homo sapiens with 6 samples.

Results

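The genes described here encode developmental transcription factors of the HOX, DLX, MSX, LHX, PAX, forkhead (FOX), SOX, GATA and T-box (TBX) families. They were taken as every probe set that the platform's probe table pairs with a single gene symbol of these family names, except the forkhead genes FOXA1, FOXA2 and FOXM1. The rule gave 90 probe sets for 89 genes, of 8746 probe sets and 7713 singly named genes on the array. Symbols that only begin alike, such as the thromboxane genes TBXA2R and TBXAS1, were not counted, and 1 probe set shared by HOXD3 and HOXD4 was left out because it names several genes. The samples were cultures of A549, a human line grown from a lung adenocarcinoma, and their messenger RNA was read on 6 oligonucleotide arrays. The 3 cisplatin cultures had been exposed for 1 hour to a 50 µM solution of this platinum compound, which crosslinks DNA, while the 3 control cultures received growth medium alone. Both were washed and left without drug for 10 hours before extraction. Cultures of each kind were taken from 3 independent experiments, as the series' design text states.

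Homeodomain, forkhead, SOX, GATA, paired-box and T-box proteins bind DNA in a sequence-specific way and set the identity of cells and body regions in the embryo. The HOX genes lie in clusters and pattern the body axis, with low-numbered genes used towards the head and high-numbered genes towards the tail. Many of these factors stay silent outside the tissues they specify, while a few, such as SOX9 and GATA6, are known from the lung epithelium, and the FOXO proteins act in most cells as stress-regulated relays of insulin signalling.

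No member passed the test for a change after cisplatin. Of the 56 member probe sets bright enough to be tested, 0 passed an adjusted p of 0.05 in limma, where 0.29% of all 6559 tested probe sets did (0.213% higher and 0.0762% lower). The lowest adjusted p of a member was 0.640, and 4 members had an unadjusted p under 0.05. Those 4 were HOXC4, GATA2 and MSX1, which were higher after cisplatin, and SOX9, which was lower. They are 7.14% of the tested members, near the 5.03% of all tested probe sets with such a p (3.4% higher and 1.63% lower). The drug response itself was plain on the same arrays. The intensity of CDKN1A, the cyclin-dependent kinase inhibitor gene induced by p53, was 1467, 1370.3 and 1429 on cisplatin arrays 1 to 3, against 249, 281 and 241 on control arrays 1 to 3. Its log2 difference was 2.42, with an adjusted p of 4.74e-06.

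Shown are the RefSeq promoters of HOXC4, GATA2 and MSX1, the members with an unadjusted p under 0.05 and a promoter entry. Each window runs from 250 bases before to 50 bases after the annotated start, on the gene's own strand in GRCh38.p14. HOXC4 and its neighbour HOXC5 have the same window, on the plus strand at chr12:54016638-54016937. The MSX1 window lies on the plus strand at chr4:4859415-4859714 and the GATA2 window on the minus strand at chr3:128493152-128493451. Capitals mark matches, on either strand, to the core TGTTTAC that forkhead proteins bind and to the GC box GGGCGG bound by SP1.
HOXC4 and HOXC5: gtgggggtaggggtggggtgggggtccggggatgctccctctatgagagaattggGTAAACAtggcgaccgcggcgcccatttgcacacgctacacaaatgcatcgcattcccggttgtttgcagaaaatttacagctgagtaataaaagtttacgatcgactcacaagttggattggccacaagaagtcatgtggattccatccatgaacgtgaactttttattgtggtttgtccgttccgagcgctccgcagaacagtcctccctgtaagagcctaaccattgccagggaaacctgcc
GATA2: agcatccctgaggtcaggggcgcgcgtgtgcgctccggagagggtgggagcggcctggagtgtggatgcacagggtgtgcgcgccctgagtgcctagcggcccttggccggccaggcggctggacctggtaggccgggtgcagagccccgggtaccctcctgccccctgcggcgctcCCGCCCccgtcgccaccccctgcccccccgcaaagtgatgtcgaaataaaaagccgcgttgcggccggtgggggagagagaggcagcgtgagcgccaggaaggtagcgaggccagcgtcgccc
MSX1: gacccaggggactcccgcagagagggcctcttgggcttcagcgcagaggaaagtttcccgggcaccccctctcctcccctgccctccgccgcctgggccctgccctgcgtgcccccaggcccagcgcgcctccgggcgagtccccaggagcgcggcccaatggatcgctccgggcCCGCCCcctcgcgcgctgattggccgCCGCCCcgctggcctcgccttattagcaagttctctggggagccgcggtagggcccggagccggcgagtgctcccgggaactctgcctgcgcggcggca
The HOXC4 and HOXC5 window holds 1 forkhead core, which begins 195 bases before the start, and no GC box. The GATA2 window holds 1 GC box, 73 bases before the start, and the MSX1 window holds 2, at 75 and 49 bases before it. Of 27305 promoter windows of this length, 3.41% hold the forkhead core and 44.6% the GC box. The homeodomain core TAATTA, the GATA core AGATAA, the SOX core AACAAT and the TATA box TATAAA were searched on both strands, and these letters are not in the 3 windows. They are in 4.98% (TAATTA), 10.5% (AGATAA), 10.3% (AACAAT) and 12% (TATAAA) of all windows. Of the 89 member genes 57 (64.0%) had a promoter entry, too few for a comparison of the members' promoters with all others. SOX9 had none.

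HOXC4, a homeodomain gene of the HOXC cluster on chromosome 12, had the lowest unadjusted p of the tested members. Its intensity was 95.8, 109 and 105 on cisplatin arrays 1 to 3, against 74.6, 75.6 and 72.7 on control arrays 1 to 3. All cisplatin arrays lay above all control arrays, and the control values were close together. The means were 103 ± 6.65 after cisplatin and 74.3 ± 1.49 in control cells (SD, n = 3 each, as for all later means). The log2 difference, cisplatin minus control on the log2(intensity + 11.8) scale used for all folds, was 0.42 (SE 0.13, 95% interval 0.12 to 0.71), or 1.33-fold, with an unadjusted p of 0.0109 and an adjusted p of 0.640 in limma. HOXC5, which shares the promoter window, was at 44.7, 70.3 and 42.0 on cisplatin arrays 1 to 3, against 84.1, 51.8 and 53.0 on control arrays 1 to 3, with overlapping groups and a log2 difference of -0.22 (95% interval -0.73 to 0.28). HOXC6 was at 83.2, 60.0 and 80.2 on cisplatin arrays 1 to 3, against 58.3, 64.1 and 68.8 on control arrays 1 to 3, also overlapping, with 0.18. In RefSeq the spans of HOXC4, HOXC5 and HOXC6 overlap, so a probe set could measure transcripts of more than 1 of them. The log2 ratio of HOXC4 to HOXC5 within each array, a pair chosen after its values were seen, was 0.93, 0.55 and 1.12 on cisplatin arrays 1 to 3, against -0.15, 0.46 and 0.38 on control arrays 1 to 3. Since the pair was picked for these values, they are a description and carry no test.

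The other HOXC genes showed no common direction. HOXC8 had a log2 difference of -0.36, from 58.5, 30.8 and 28.7 on cisplatin arrays 1 to 3, against 50.2, 55.7 and 49.2 on control arrays 1 to 3. Cisplatin 1 lay above all control arrays there and the other cisplatin arrays below them. HOXC11, which acts in the hindlimb and kidney, had 0.055 and was brightest on cisplatin 2, at 144, where the other 5 arrays held 63.1 to 93.1. HOXC13, needed for hair formation, had 0.26 with means of 36.0 ± 13.6 after cisplatin and 27.7 ± 8.60 in control cells. Without cisplatin 2 it was 0.038, and without control 2 it was 0.13. HOXC10 was too dim to be tested.

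In the HOXB cluster on chromosome 17 the brightest HOX probe set was that of HOXB7, a factor often studied in epithelial cancers. Probe sets differ in how strongly they bind, so the order of these intensities is no order of transcript amounts. HOXB7 gave 254, 349 and 268 on cisplatin arrays 1 to 3, against 287, 273 and 250.5 on control arrays 1 to 3. Cisplatin 2 was the highest array and the other 5 lay together, so the groups overlapped, and the log2 difference was 0.089 (95% interval -0.23 to 0.41, adjusted p = 0.999 in limma). HOXB6 stood at 73.7, 65.4 and 74.9 on cisplatin arrays 1 to 3, against 80.2, 88.5 and 98.3 on control arrays 1 to 3, lower on each cisplatin array than on any control array, with a log2 difference of -0.28 (unadjusted p = 0.0834, adjusted p = 0.999). HOXB5, a regulator of branching in the developing mouse lung, had means of 95.3 ± 21.4 after cisplatin and 77.8 ± 8.63 in control cells and a log2 difference of 0.24, or 0.085 without cisplatin 2. HOXB2, a hindbrain factor, had 0.45 from means of 41.3 ± 12.6 after cisplatin and 26.9 ± 7.79 in control cells, or 0.27 without cisplatin 2 and likewise without control 2. HOXB1 had the widest interval of any HOX gene (-0.35 to 1.66 around 0.66). Its control 1 value was 3.95, and the other 5 arrays lay between 14.4 and 53.6. Without control 1 the difference was 0.18. HOXB3 and HOXB8 were below the filter.

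HOXA2, which patterns the second branchial arch, was the 1 HOXA member, and its log2 difference was 0.13 with means of 71.9 ± 21.6 after cisplatin and 64.1 ± 13.6 in control cells. On chromosome 2 the tested HOXD genes all had overlapping groups. The log2 differences were 0.034 for HOXD1, -0.24 for HOXD4, 0.082 for HOXD10 and -0.002 for HOXD13, the digit gene mutated in synpolydactyly, with cisplatin means between 28.5 and 61.6 and control means between 35.4 and 56.8. HOXD9, HOXD11 and HOXD12 were too dim to be tested. Over the 16 tested HOX genes of 22, the median log2 difference was 0.086, with 11 higher, 5 lower and 0 called, 1 at an unadjusted p under 0.05.

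**Figure D1:**
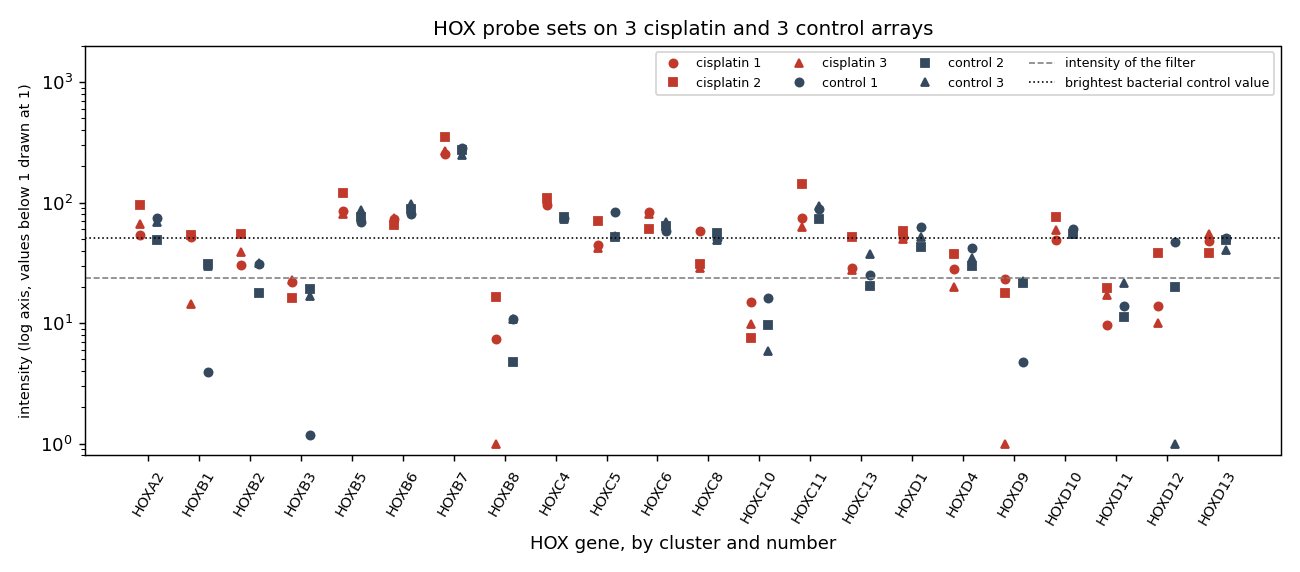
Intensity (log axis) of the 22 HOX probe sets on each of 3 cisplatin and 3 control arrays, with the intensity that corresponds to the filter (23.8, dashed) and the brightest value of the bacterial control probe sets (51.3, dotted). HOXB7 was the brightest HOX probe set, the HOXC4 groups did not overlap, and the square of cisplatin 2 was the top point for HOXB7, HOXC11 and HOXB5 among others.

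HOX proteins bind DNA together with homeodomain partners of the TALE class, among them the PBX and MEIS proteins. The list of TALE genes read here also held TGIF1 and TGIF2, whether or not they act with HOX proteins. Of the 11 genes listed, 7 had a singly named probe set and 6 were tested, with 0 called in limma and 0 below an unadjusted p of 0.05. Their median log2 difference was -0.056, with 3 higher and 3 lower. The lowest unadjusted p values were those of TGIF1 (log2 -0.13), PBX3 (-0.14) and PBX2 (0.22).

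MSX1, a homeodomain repressor that keeps limb and craniofacial cells undifferentiated, was at 64.5, 64.6 and 62.7 on cisplatin arrays 1 to 3, against 53.0, 47.0 and 41.2 on control arrays 1 to 3. The cisplatin values were close together and all lay above the controls. Its log2 difference was 0.37 (SE 0.15, 95% interval 0.032 to 0.70), with an unadjusted p of 0.0350 and an adjusted p of 0.890 in limma. With arrays centred on their medians its unadjusted p was 0.0922. DLX5, a bone and craniofacial factor, gave 33.2, 70.7 and 35.8 on cisplatin arrays 1 to 3, against 39.7, 22.5 and 19.4 on control arrays 1 to 3. Only cisplatin 2 exceeded every control array, and the log2 difference was 0.56 (adjusted p = 0.997), or 0.28 without cisplatin 2. MSX2, DLX2, DLX4 and DLX6 were below the filter, and DLX2 was below 0 on all 6 arrays. Of the LIM-homeodomain genes LHX2, LHX3, LHX5 and LHX6, which act mainly in the nervous system, the log2 differences were between 0.10 and 0.25, with unadjusted p values from 0.338 to 0.690. LHX1 was not tested.

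Among the paired-box genes PAX8, a thyroid and kidney factor, was at 189, 289 and 188 on cisplatin arrays 1 to 3, against 198, 191 and 186 on control arrays 1 to 3. The 5 arrays other than cisplatin 2 lay within 186 and 198, so its log2 difference of 0.17 (95% interval -0.21 to 0.55) rested on that array. Without cisplatin 2 it was -0.025. PAX3, a neural crest and muscle factor, had means of 146 ± 24.0 after cisplatin and 141 ± 5.28 in control cells and a log2 difference of 0.034. PAX1, which acts in the vertebral column, had 90.0 ± 8.81 after cisplatin and 95.9 ± 25.0 in control cells, with control 1 the highest array, and -0.06. PAX6, the eye factor, had 0.014, and PAX4, PAX7 and PAX9 were below the filter.

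SOX9 had the lowest p of the members that were lower after cisplatin. It directs cartilage and testis development and marks the distal tips of the embryonic lung. Its intensity was 209.8, 186 and 232 on cisplatin arrays 1 to 3, against 257, 269 and 269.7 on control arrays 1 to 3. Every cisplatin array lay below every control array, and the control values were close together. The means were 209 ± 23.2 after cisplatin and 265 ± 7.16 in control cells, a log2 difference of -0.33 (SE 0.12, 95% interval -0.61 to -0.052), with an unadjusted p of 0.0248 and an adjusted p of 0.797 in limma. The interval excludes a 2-fold change, while it reaches close to 0. SOX4, a SOXC factor active in many cancers, was at 227, 208 and 193 on cisplatin arrays 1 to 3, against 202, 248 and 223 on control arrays 1 to 3. Its groups overlapped, with a log2 difference of -0.093 (95% interval -0.38 to 0.20).

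The other tested SOX genes were dim. SOX12, of the same SOXC subgroup as SOX4, was lower on every cisplatin array, with means of 35.9 ± 2.34 after cisplatin and 43.6 ± 6.90 in control cells and a log2 difference of -0.21 (unadjusted p = 0.238). SOX13 was higher on every cisplatin array, at 36.7, 37.9 and 37.1 on cisplatin arrays 1 to 3, against 33.4, 33.7 and 23.7 on control arrays 1 to 3, with 0.23 (unadjusted p = 0.218), or 0.11 without control 3. SOX15 had -0.37 and SOX5 -0.072, both with overlapping groups. SOX3, a gene just above the filter, had means of 27.8 ± 8.24 after cisplatin and 22.9 ± 2.57 in control cells and a log2 difference of 0.17. SOX10, just below it, had means of 23.3 after cisplatin and 22.4 in control cells and was not tested, like SOX1, SOX11, SOX14, SOX17, SOX18, SOX21 and SOX30. Of 7 tested SOX genes 5 were lower and 2 higher, with a median log2 difference of -0.093, where that of all tested probe sets was 0.040. SOX proteins share targets and cofactors with the WNT effectors CTNNB1 and TCF. Of 14 genes listed as WNT partners and readouts, 7 had a singly named probe set and 5 were tested, with 0 called in limma and 0 below an unadjusted p of 0.05. CTNNB1 had a log2 difference of 0.13, TLE2 0.16 and TCF7L1 -0.13.

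GATA2, a factor of blood stem cells and endothelium, had the largest log2 difference of a tested member. Its intensity was 58.4, 28.0 and 43.8 on cisplatin arrays 1 to 3, against 14.4, 26.6 and 19.9 on control arrays 1 to 3. The groups were apart by little, since the lowest cisplatin value was 28.0 and the highest control value 26.6. The log2 difference was 0.76 (SE 0.25, 95% interval 0.21 to 1.31), with an unadjusted p of 0.0120 and an adjusted p of 0.656 in limma. Its size depended on the added offset: it was 1.08 with no offset and 0.40 with an offset of 50. Both groups were dim: control probe sets for bacterial transcripts reached 51.3 on these arrays, which only cisplatin 1 exceeded. That limit comes from 1 of 12 such probe sets. The others reached 31.8, which cisplatin 3 exceeded as well. GATA3, a T cell and luminal epithelial factor, lay between 78.6 and 83.0 on the cisplatin arrays, against 78.6 to 83.3 on the control arrays. These 6 values were nearly the same, and the log2 difference was 0.0032 (95% interval -0.29 to 0.30). GATA1, the erythroid factor, had -0.11 from means of 25.1 ± 4.73 after cisplatin and 28.3 ± 9.23 in control cells.

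GATA6, the GATA factor of lung and gut endoderm, was below the filter, at 25.9, 15.9 and 19.9 on cisplatin arrays 1 to 3, against 20.4, 20.4 and 18.7 on control arrays 1 to 3. GATA4 was also too dim to be tested. Of 16 listed GATA and LIM cofactors 13 had a singly named probe set and 9 were tested, with 0 called in limma and 0 below an unadjusted p of 0.05. LMO4, a LIM-only adaptor, had means of 707 ± 28.1 after cisplatin and 811 ± 62.3 in control cells and a log2 difference of -0.19 (unadjusted p = 0.0737). The LIM-binding gene LDB1 had 0.28 and LMO1 0.30.

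**Figure D2:**
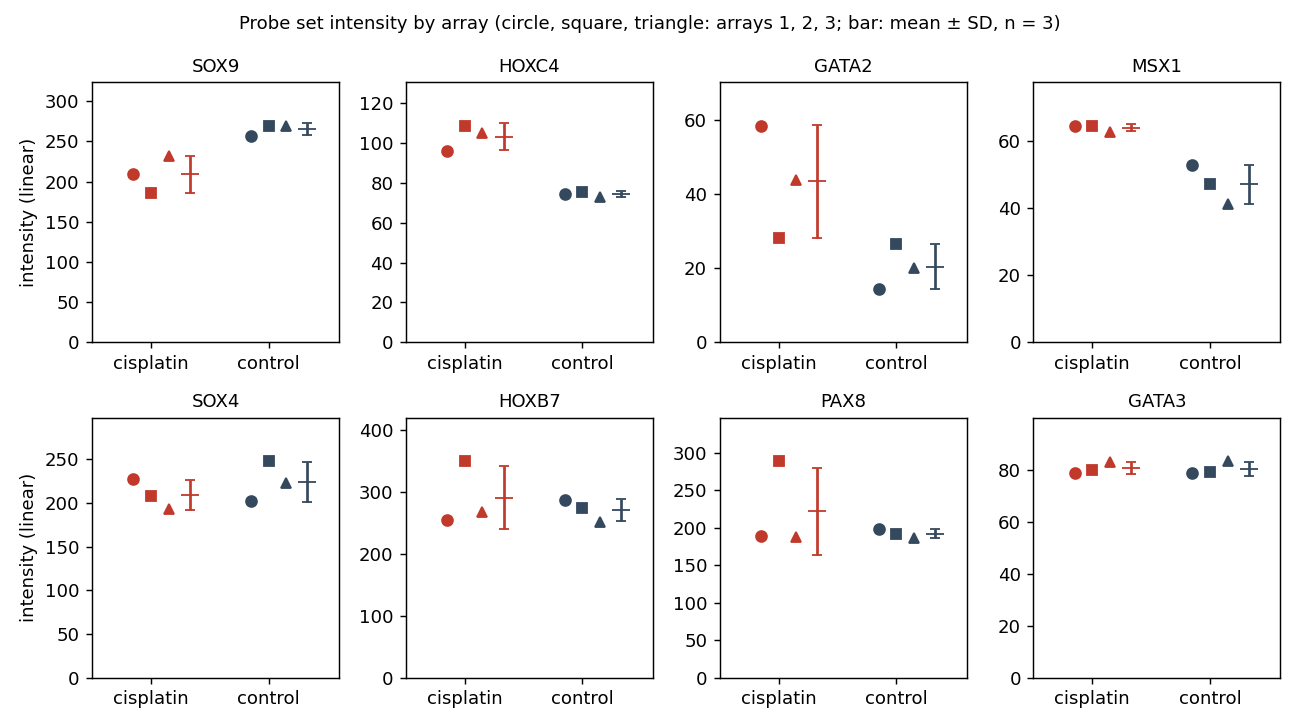
Linear intensity on each array for the 4 genes with an unadjusted p under 0.05 (top) and for SOX4, HOXB7, PAX8 and GATA3 (bottom), cisplatin in red and control in blue, with mean ± SD of 3 arrays. The groups are apart in the top row and overlap in the bottom row, where cisplatin 2 (square) is the high point for HOXB7 and PAX8.

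The FOXO factors FOXO1, FOXO3 and FOXO4 are held in the cytoplasm by AKT and move to the nucleus under stress, so their messenger RNA is only part of their control. FOXO3 was at 89.2, 64.8 and 82.1 on cisplatin arrays 1 to 3, against 61.6, 74.2 and 99.4 on control arrays 1 to 3. FOXO1 was at 44.1, 58.2 and 31.0 on cisplatin arrays 1 to 3, against 32.3, 43.7 and 60.8 on control arrays 1 to 3, and its groups overlapped too. FOXO4 lay between 35.0 and 36.0 on the cisplatin arrays, against 33.4 to 52.8 on the control arrays. The log2 differences were 0.017 for FOXO3, -0.028 for FOXO1 and -0.13 for FOXO4. On the scale with the added offset, the 95% intervals of all 3 lay within a 1.5-fold change either way. The offset shrinks folds at low intensity, so this bound is given for that scale only. With no offset the log2 differences were 0.021 for FOXO3, -0.036 for FOXO1 and -0.17 for FOXO4. The sign of FOXO3 turned under each scaling alternative. The list of FOXO kinases, regulators and target genes held 36 symbols, with TNFSF10 entered also as TRAIL. Of these, 26 genes had a singly named probe set and 22 were tested, with 0 called in limma. Below an unadjusted p of 0.05 were 2, both higher, where 3.4% of all tested probe sets were higher at that p. These were CCNG2, the cyclin G2 gene that FOXO factors induce, with means of 49.0 ± 4.48 after cisplatin and 31.3 ± 2.30 in control cells and a log2 difference of 0.49 (unadjusted p = 0.0115, adjusted p = 0.651), and KLF2, an endothelial zinc finger factor, with 61.6 ± 11.7 after cisplatin and 40.4 ± 7.23 in control cells and 0.49 (adjusted p = 0.797). YWHAZ, a 14-3-3 gene whose protein holds FOXO factors in the cytoplasm, had -0.17. The median over the 22 was -0.0027, with 11 higher and 11 lower.

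The intervals of FOXJ2, FOXK2 and FOXF2 lay within a 1.5-fold change either way. FOXJ2 had means of 158 ± 4.07 after cisplatin and 146 ± 15.6 in control cells and a log2 difference of 0.11, and FOXK2, a partner of chromatin and autophagy regulators, had 148 ± 4.87 after cisplatin and 145 ± 22.9 in control cells and 0.035. FOXF2, a factor of lung and gut mesenchyme, was at 123, 130.4 and 123 on cisplatin arrays 1 to 3, against 115, 123 and 119.8 on control arrays 1 to 3. The cisplatin values of FOXF2 all lay just above the controls, and its log2 difference was 0.069 (95% interval -0.21 to 0.35). FOXN3, a checkpoint-linked repressor, was at 35.2, 29.3 and 30.5 on cisplatin arrays 1 to 3, against 35.4, 55.4 and 42.2 on control arrays 1 to 3. Its groups did not overlap, though cisplatin 1 and control 1 nearly met, and the log2 difference was -0.36 (unadjusted p = 0.0839, adjusted p = 0.999 in limma). FOXD2, FOXH1, FOXJ1, FOXL2 and FOXN2 had overlapping groups and log2 differences between -0.15 (FOXH1) and 0.33 (FOXN2), while FOXB1, FOXC2, FOXD3, FOXF1, FOXI1 and FOXN1 were too dim to be tested. Of 13 tested forkhead genes 8 were higher and 5 lower, with a median of 0.035 and 0 at an unadjusted p under 0.05. FOXA1 and FOXA2, left out by the rule, had log2 differences of 0.0038 (FOXA1) and 0.034 (FOXA2). For FOXM1, also left out, no singly named probe set was found.

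FOXE1, a thyroid factor, was the 1 gene with more than 1 probe set. The brighter had means of 28.8 ± 8.51 after cisplatin and 31.8 ± 6.52 in control cells and a log2 difference of -0.11. The dimmer, below the filter, was at 4.59, 16.3 and 14.3 on cisplatin arrays 1 to 3, against 24.9, 20.1 and 23.4 on control arrays 1 to 3, lower on every cisplatin array, and when the filter was lifted it had a log2 difference of -0.59 with an adjusted p of 0.914 in limma. FOXE3, a lens factor, was also below the filter, at 24.4, 44.5 and 16.8 on cisplatin arrays 1 to 3, against 9.65, 9.83 and 9.73 on control arrays 1 to 3. All its cisplatin values lay above the controls, and without the filter its log2 difference was 0.85 (unadjusted p = 0.0101, adjusted p = 0.705). All of its values were below the 51.3 of the brightest bacterial control probe set, but the cisplatin 2 value exceeded the 31.8 that the others reached.

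T-box factors set limb, heart and mesoderm fates. TBX19, which drives pituitary corticotroph genes, gave 65.3, 90.6 and 59.1 on cisplatin arrays 1 to 3, against 67.5, 37.6 and 39.7 on control arrays 1 to 3. Control 1 lay above cisplatin 1 and cisplatin 3, and the log2 difference was 0.49 (95% interval -0.0089 to 0.99, unadjusted p = 0.0534, adjusted p = 0.977). TBX5, the forelimb and heart factor, was at 77.5, 77.5 and 75.1 on cisplatin arrays 1 to 3, against 69.8, 67.3 and 71.3 on control arrays 1 to 3. The groups did not overlap, yet the log2 difference was 0.12 with an unadjusted p of 0.375. TBX2, a repressor of senescence genes expressed in lung mesenchyme, had means of 115 ± 28.5 after cisplatin and 109 ± 6.20 in control cells and 0.056, again with cisplatin 2 highest. TBXT, the brachyury gene of early mesoderm, had 0.27, and TBX21, the T helper factor just above the filter, had 0.29 from means of 28.5 ± 8.34 after cisplatin and 20.9 ± 4.87 in control cells. TBX6, a paraxial mesoderm factor, had 0.16 with overlapping groups, and TBX1 and TBX4 were not tested. Of 7 tested T-box genes 6 were higher and 1, TBX10, was lower, with a median of 0.16 and 0 at an unadjusted p under 0.05.

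**Figure D3:**
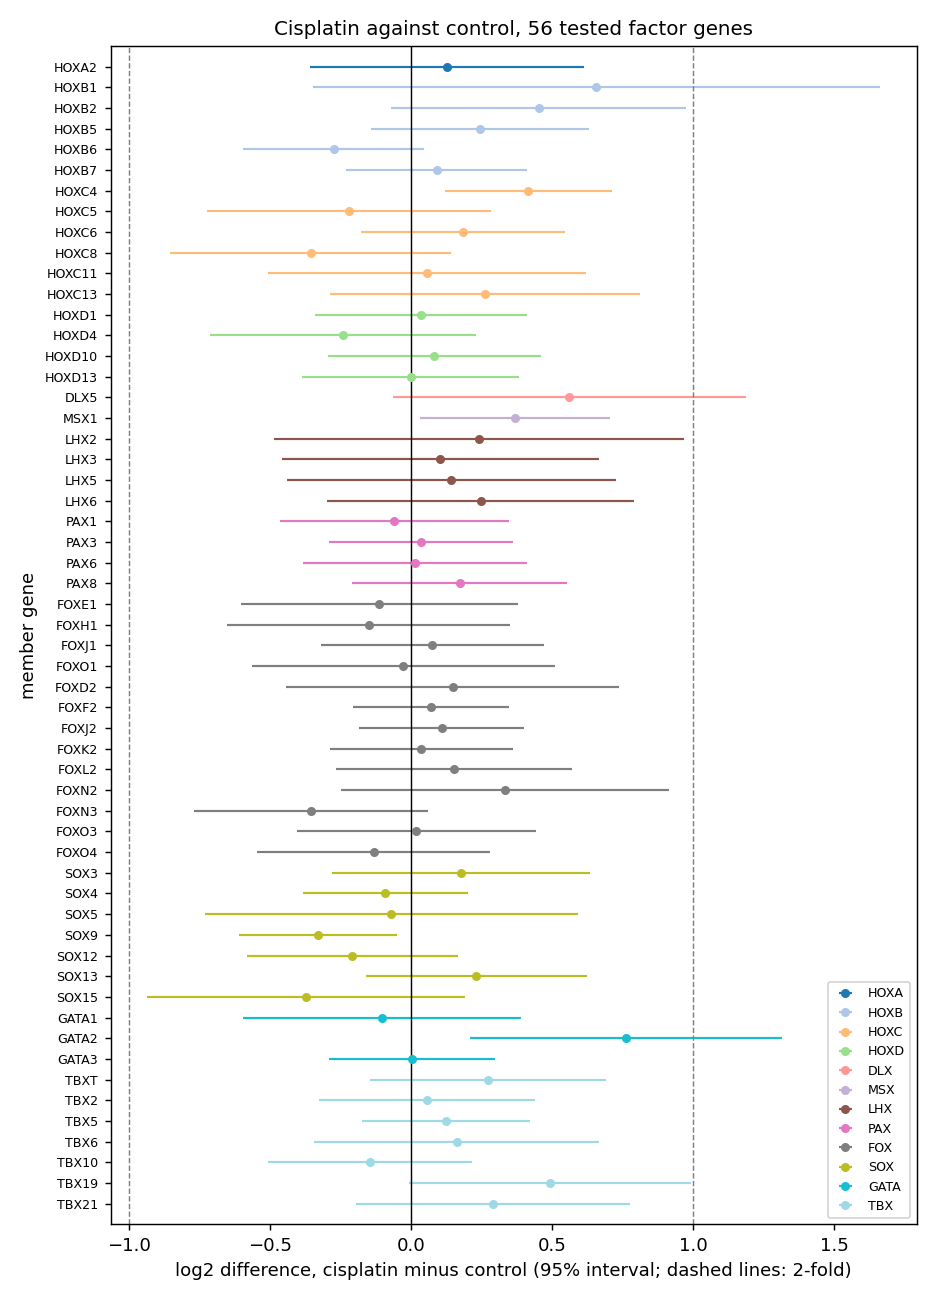
Log2 difference, cisplatin minus control, with its 95% interval for the 56 tested genes, grouped by family; dashed lines mark 2-fold changes. The intervals of HOXC4, MSX1, GATA2 and SOX9 leave out 0. Those of 53 genes lie inside the 2-fold lines on the scale with the added offset, the other 3 being HOXB1, DLX5 and GATA2.

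Over all 56 tested members 38 were higher and 18 lower after cisplatin, with a median log2 difference of 0.078 beside 0.040 over all tested probe sets, of which 60.5% were higher. With arrays centred on their medians the split was 29 higher and 27 lower, and with quantile normalization 32 and 24. The 95% intervals of 53 lay within a 2-fold change in both directions, and those of 23 within a 1.5-fold change. Both counts are for the scale with the added offset, which shrinks folds at low intensity. The groups did not overlap for 10 of them, or 17.9%, where 11% of all tested probe sets were apart in this way (7.42% higher and 3.57% lower). The 10 were HOXC4, MSX1, FOXF2, SOX13, GATA2 and TBX5 on the higher side and HOXB6, FOXN3, SOX9 and SOX12 on the lower. The median intensity of the tested members was 52.0, 61.5 and 53.6 on cisplatin arrays 1 to 3, against 51.8, 48.0 and 47.4 on control arrays 1 to 3.

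Cisplatin 2 held the highest of the 6 values for 25 of the 56 tested members, or 44.6%, where it did so for 29.1% of all tested probe sets. Each of the other 5 arrays was highest for 4 to 8 members. Among the tested genes named by rule, leaving out cisplatin 2 made the log2 difference over 1.5 times smaller, or turned it, for 14 of 38. Leaving out any other single array did so for 5 to 11, and 32 of 40 genes moved that far with at least 1 array. Without cisplatin 2 the median log2 difference of the members was 0.012, with 29 higher and 26 lower, and 0 were called. In that limma fit 5 members (9.09%) had an unadjusted p under 0.05, beside 6.45% of all tested probe sets. They were HOXC4, GATA2, MSX1, SOX15 and LHX2. The cisplatin 2 value of LHX2, 17.8, was the lowest of its 6 arrays. SOX9 had an unadjusted p of 0.0659. SOX15, whose cisplatin 2 value lay above every other array, had 0.00514 there with an adjusted p of 0.469.

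**Figure D4:**
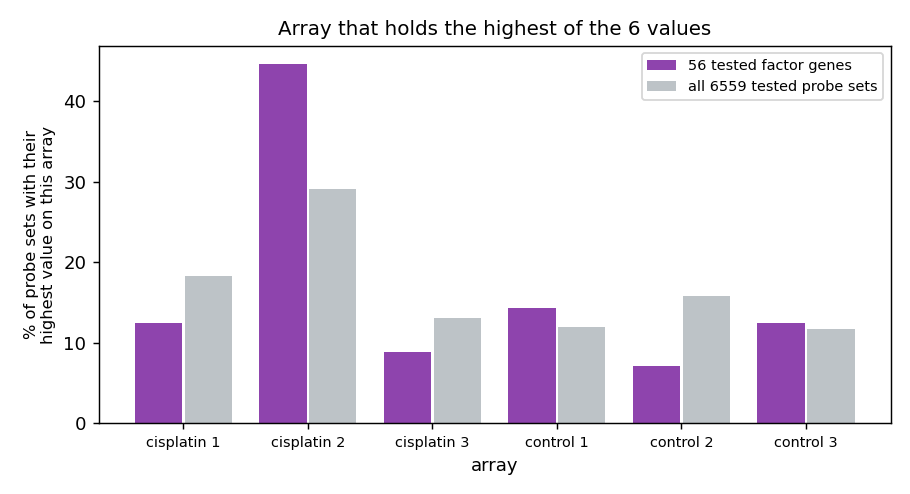
Percentage of the 56 tested factor genes (purple) and of all 6559 tested probe sets (grey) whose highest value lay on each array. Cisplatin 2 held the highest value for 44.6% of the factor genes and 29.1% of all probe sets.

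Brightness sets how much these arrays can say. Of the 90 probe sets 34, or 37.8%, were below the filter, which removed 25% of all, and their values ran from -24.7 to 47.0. PAX4 was the other gene next to the filter, with means of 20.7 after cisplatin and 23.0 in control cells. The 12 Bacillus subtilis control probe sets gave -9.63 to 51.3 with a median of 8.05, and whether such transcripts were added is not given in the sources used here. Only 19 members, 21.1%, exceeded 51.3 on all 6 arrays, where 47.2% of all probe sets did. With the brightest bacterial control probe set left out, 34 members (37.8%) and 58.5% of all probe sets exceeded the limit of 31.8. The 19 were HOXB5, HOXB6, HOXB7, HOXC4, HOXC6, HOXC11, LHX6, PAX1, PAX3, PAX8, FOXF2, FOXJ2, FOXK2, FOXO3, SOX4, SOX9, GATA3, TBX2 and TBX5.

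Median intensities of the 6 arrays lay between 57.2 and 67.2, the highest on cisplatin 2. Precision is limited by having 3 arrays a group. Control 1 and cisplatin 2 stood apart from the rest on the first principal component, which held 39.9% of the variance. The ACTB probe sets, which compare the 3′ with the 5′ end of a transcript and so gauge RNA quality, gave ratios of 3.67, 2.67 and 2.94 on cisplatin arrays 1 to 3, against 2.20, 2.98 and 2.95 on control arrays 1 to 3. The ratio was tried as a covariate, with which 0 members were called. The A549 markers KRT8, KRT18 and VIM had means of 1957 to 5810 over both groups. KRT19 had 143 after cisplatin and 131 in control cells, and CDH2 219 after cisplatin and 235 in control cells. CDH1 and EPCAM had means of 32.7 to 37.3, and each of their values lay below the 51.3 of the brightest bacterial control probe set. Of 6 lung epithelium markers 5 had a probe set and 0 were called. NKX2-1 had 83.1 after cisplatin and 95.8 in control cells (log2 -0.19) and SFTPD 37.8 after cisplatin and 41.5 in control cells (-0.13). SFTPB, with groups that did not overlap, had 49.1 after cisplatin and 29.7 in control cells (log2 0.55, unadjusted p = 0.0213, adjusted p = 0.789 in limma). SFTPC had 55.3 after cisplatin and 49.0 in control cells (log2 0.15), and SCGB1A1, below the filter, had 17.03 after cisplatin and 14.7 in control cells. Of 13 markers of other cell types 10 had a probe set, 0 were called, and their summed intensity was 285 to 386 on cisplatin arrays, against 304 to 368 on control arrays. COL1A1 had means of 95.5 after cisplatin and 102 in control cells, and PECAM1 69.6 after cisplatin and 61.2 in control cells. Both exceeded 51.3, the brightest bacterial control value, on all 6 arrays. The other markers had means below 51.3, down to 1.25 for COL3A1 in control cells. In such bulk RNA fewer cells that express a gene and less of its RNA per cell cannot be told apart.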

How the data were processed

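Total RNA of A549 cells was measured on 6 oligonucleotide arrays, 3 of cisplatin-treated and 3 of control cells, with biotin-labelled target per the labels' protocols. The deposited table gives a linear intensity for each probe set. Of 52758 deposited values 723 are at or below 0, so some subtraction came before deposit; which software and scaling made them is not given in the sources used here. Values below 0 were set to 0, 11.8 (the 10th percentile of positive values) was added, and log2 was taken. The 75th percentiles spanned 0.15 on that scale, so no further scaling was applied. Besides 47 control probe sets there were 8746, and the 6559 whose mean log2 reached the 25th percentile (an intensity of about 23.8) were tested.

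The groups, cisplatin minus control, were fitted with limma 3.58.1 in R 4.3.3 (lmFit, eBayes with an intensity trend, two-sided, Benjamini-Hochberg over all tested probe sets at 0.05). Figures were drawn with matplotlib 3.10.9. The fit was tested on simulated data. The added offset shrinks folds at low intensity. A gene was represented by its brightest tested probe set. Symbols came from the platform table; the Entrez identifiers of all 90 member probe sets matched RefSeq (GRCh38.p14), with 0 symbols changed, and promoters are RefSeq's.

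The members, the lists of partner genes and the rules were chosen with earlier results of these data known; the comparison with bacterial control probe sets and the HOXC4 to HOXC5 ratio were added after the values were seen, as was leaving out the brightest of those probe sets. In full were named the 16 tested genes with the lowest unadjusted p, the 12 with the brightest control mean, every tested HOX, FOXO and GATA gene, the 2 genes on each side of the filter, and the 3 of each list with the lowest unadjusted p. The 10 genes whose groups did not overlap, and other members given with a value, were named after their values were seen. Alternatives covered scaling, offset, filter, variance prior, replicate block, array weights, the ACTB 3′/5′ covariate and leaving out arrays.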

Additional observations from a re-analysis of the deposited data

How the results depend on the processing

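Under all 18 alternatives 0 members were called, with a lowest adjusted p between 0.161 (array weights) and 1.00 (replicate block), and the median log2 difference of the members lay between 0.0055 and 0.13. Between 2 and 11 members had an unadjusted p under 0.05, and the share over all probe sets moved too: 3.57% of members and 2.93% of all with the replicate block, 19.6% and 11.97% with the 3′/5′ covariate. HOXC4 was among them under all 18, GATA2 under 16 of 17, SOX9 under 12 of 18 and MSX1 under 9 of 17, each with its direction kept. Against 19 probe sets over the whole array, 11 passed after median centring, 5 with the replicate block, 8 when the variance prior had no trend, 44 with array weights and 37 with the 3′/5′ covariate; the cause was not tested. Leaving out 1 array in turn gave 6 to 18. The labels do not say that equal replicate numbers share an experiment, and the deviations of equally numbered arrays from their group means correlated at -0.56, -0.31 and -0.12. The mean of all tested probe sets of a gene gave the same values, since each of the 56 genes had 1 tested probe set. Of the 40 tested genes that were named by rule, 22 kept their sign under every alternative that tested them, and 18 turned it under at least 1. None of these 18 had an unadjusted p under 0.05 as reported. Genes with such a p lie further from 0 for their spread, so in refits of the same arrays a turned sign was unlikely from the start. With arrays centred on their medians the turned log2 differences were FOXF2 -0.0036, FOXK2 -0.037, FOXO3 -0.055, GATA3 -0.069, HOXC11 -0.017, HOXD1 -0.038, PAX3 -0.038 and TBX2 -0.016. With arrays centred on the 75th percentile the turned log2 differences were FOXK2 -0.0087, FOXO3 -0.027, GATA3 -0.041, HOXD1 -0.010 and PAX3 -0.0098. With quantile normalization the turned log2 differences were FOXK2 -0.0068, FOXO3 -0.062, GATA3 -0.073, HOXC11 -0.0042 and HOXD1 -0.048. With an offset of 50 the turned log2 differences were HOXD13 4.6e-05. With array weights the turned log2 differences were HOXB1 -0.051, HOXC11 -0.20, HOXD13 0.13, PAX1 0.055, PAX3 -0.025 and TBX2 -0.050. With the 3′/5′ ratio of ACTB as a covariate the turned log2 differences were FOXO3 -0.15 and PAX1 0.11. Without control 1 and cisplatin 2 together the turned log2 differences were FOXO3 -0.0056, FOXO4 0.022, GATA3 -0.0063, HOXB1 -0.043, HOXB7 -0.0035, HOXC11 -0.23, HOXD10 -0.017, HOXD13 0.16, PAX1 0.077, PAX3 -0.10, PAX8 -0.0036 and TBX2 -0.080. Leaving out 1 array in turn gave log2 differences of -0.092 to 0.10 for FOXK2, -0.20 to 0.16 for FOXO1, -0.12 to 0.18 for FOXO3, -0.24 to 0.023 for FOXO4, -0.27 to 0.063 for GATA1, -0.016 to 0.026 for GATA3, -0.070 to 0.29 for HOXA2 and -0.046 to 0.17 for HOXB7. In the same 6 fits they were -0.26 to 0.27 for HOXC11, -0.080 to 0.15 for HOXD1, -0.051 to 0.20 for HOXD10, -0.095 to 0.11 for HOXD13, -0.20 to 0.12 for PAX1, -0.081 to 0.13 for PAX3, -0.025 to 0.27 for PAX8 and -0.12 to 0.15 for TBX2. Signal over background limits the 34 members below the filter; lifting it gave 0 called members and 6 member probe sets (6.67%) with an unadjusted p under 0.05, beside 5.2% of all.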

Other observations

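Homeobox genes outside the member families and the chromatin regulators that keep HOX genes silent or active were also read. Of 83 listed homeobox genes 51 had a singly named probe set and 24 were tested, with 0 called in limma and a median log2 difference of 0.068. Below an unadjusted p of 0.05 was 1 gene, which was lower, where 1.63% of all tested probe sets were lower at that p. That gene was ALX1, a factor of craniofacial mesenchyme, at 240.4, 199 and 245 on cisplatin arrays 1 to 3, against 262, 338 and 342 on control arrays 1 to 3. The cisplatin values all lay below the controls, and the log2 difference was -0.44 (SE 0.15, unadjusted p = 0.0137, adjusted p = 0.664). CDX1, an intestinal homeobox gene, was bright, at 661, 621 and 635 on cisplatin arrays 1 to 3, against 503, 546 and 599.7 on control arrays 1 to 3, with a log2 difference of 0.22 (adjusted p = 0.977). VAX2, an eye factor, had 0.33.

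Of 33 listed Polycomb and trithorax genes 17 had a singly named probe set and 16 were tested, with 0 called in limma and 0 below an unadjusted p of 0.05. Their median log2 difference was 0.077, with 11 higher and 5 lower. RBBP5, a subunit of histone H3 methyltransferase complexes, had 0.35 from means of 36.0 ± 4.70 after cisplatin and 25.7 ± 3.55 in control cells. EZH1, a Polycomb methyltransferase, had 0.22 from means of 119 ± 12.2 after cisplatin and 100.1 ± 5.16 in control cells, and PHC2, a Polycomb subunit, -0.20 from means of 335 ± 45.9 after cisplatin and 385 ± 35.4 in control cells.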
